A study of Mus musculus with 4 samples.

Results

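The glucocorticoid receptor gene Nr3c1 and 9 genes known to be induced by glucocorticoids (Zbtb16, Fkbp5, Tsc22d3, Sgk1, Klf9, Errfi1, Mt1, Mt2 and Pdk4) were followed through lung RNA sequencing of C57BL6 mice. The 10 genes were found by symbol among the 21931 genes of the deposited table. The set was chosen by its levels in the knockout libraries against Hez and wild type (the read counts and FPKM of this table), so its own differences are given as a description, without a test. Of the 10, 9 had reads and passed the filter on low counts, and Mt2 had 0 reads in every library. The study asked which lung genes differ when Dnah9, a dynein heavy chain of motile cilia, is knocked out. Its 4 libraries comprised 2 labelled Dnah9 knockout (knockout 1 and knockout 2), 1 whose genotype label reads Hez and 1 from a wild-type mouse. The labels do not spell out Hez, and they give neither the deleted stretch of Dnah9, nor the promoter or strategy of the knockout, nor whether animals were pooled. All mice were 2 months old, received no further treatment and had whole lung tissue taken fresh for RNA.

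Glucocorticoids are adrenal steroid hormones that enter cells and bind a receptor held ready by heat shock proteins. The bound receptor moves to the nucleus, binds paired six-letter DNA sites and raises transcription of genes that dampen inflammation, shift fuel use and restrain the receptor itself. Circulating hormone follows the time of day and rises with stress, and in the lung it supports surfactant production and fluid clearance.

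The libraries held 15860478 to 16553480 reads assigned to genes, with reads on 16445 to 16571 genes. CPM, the count relative to the TMM-scaled library total (factors 0.9931 to 1.006), is used below, and its 95% exact Poisson intervals cover counting error only. Reads on Dnah9 came to 14.8 CPM in knockout 1 and 16.0 CPM in knockout 2, against 25.4 CPM in Hez and 56.6 CPM in wild type. Dnah9 was thus lowest in both knockout libraries, though reads remained, and reads outside a deleted stretch would still be counted. Markers of alveolar epithelium summed to 20089 CPM in knockout 1, 19487 CPM in knockout 2, 18510 CPM in Hez and 17699 CPM in wild type, so markers of the labelled tissue were abundant in every library. Over all 15055 genes tested, edgeR's quasi-likelihood test called 8 for knockout against wild type at an adjusted p below 0.05, which is 0.0531% of them. It called 1 for knockout against Hez (0.00664%) and 2 for knockout against Hez and wild type together (0.0133%). At an unadjusted p below 0.05 the same 3 comparisons held 780, 694 and 763 genes.

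The members fell into 3 patterns. Zbtb16 was low in both knockout libraries, at about the same level in each, and Fkbp5 was low in both but lower in knockout 2. Tsc22d3, Klf9, Errfi1 and Pdk4 were lower in knockout 2 and, in knockout 1, within or above the range of Hez and wild type. Nr3c1, Sgk1 and Mt1 differed less among the libraries, though Mt1 was lowest in knockout 2. Of the 10 members, 2 (Zbtb16 and Fkbp5) had both knockout libraries below both Hez and wild type. Over all genes tested 2456 did so, or 16.3%, and since the knockout values helped to choose the members, nothing is read from that count.

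**Figure D1:**
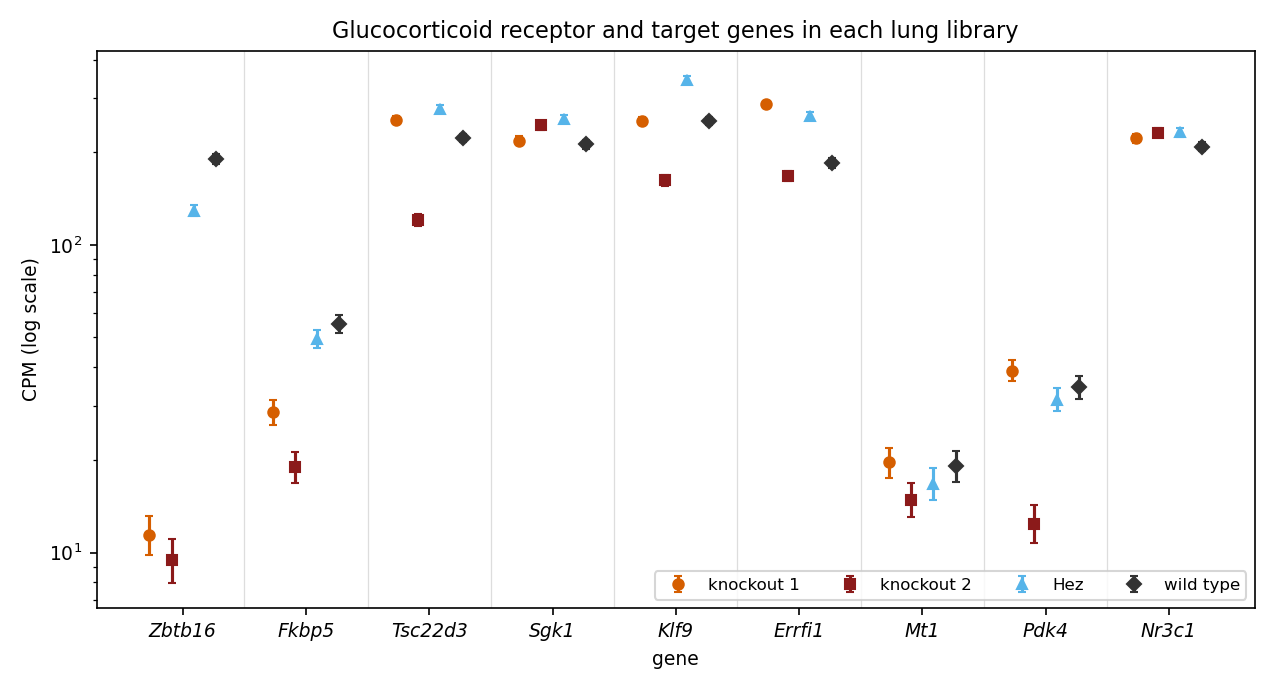
CPM on a log axis for the 9 members with reads, in the 4 lung libraries. Each point is 1 library and bars are 95% exact Poisson intervals of the count. Both knockout libraries of Zbtb16 sit near 10.4 CPM, against 129 CPM in Hez and 190 CPM in wild type, while Pdk4 stands apart only in knockout 2, at 12.4 CPM.

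The receptor itself varied least. Nr3c1 (ENSMUSG00000024431, minus strand) lies at chr18:39543598-39652474 in GRCm39, the build of the table. It had 222 CPM in knockout 1 and 232 CPM in knockout 2, against 232 CPM in Hez and 208 CPM in wild type. The knockout libraries lay between and level with the other libraries, so the groups overlapped. The differences from wild type were 0.09 in knockout 1, 0.15 in knockout 2 and 0.15 in Hez, in log2 CPM. Per length, the level was 28.6 FPKM in knockout 1, 30.2 FPKM in knockout 2, 30.1 FPKM in Hez and 27.3 FPKM in wild type.

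Fkbp5 encodes FKBP51, a co-chaperone of the receptor complex that lowers its affinity for hormone and whose own transcription the receptor raises, closing a feedback loop. The gene (ENSMUSG00000024222) lies at chr17:28618068-28736501 on the minus strand. It had 464 reads in knockout 1 and 301 reads in knockout 2, against 817 reads in Hez and 894 reads in wild type. These counts correspond to 28.5 CPM (interval 26.0 to 31.2) in knockout 1 and 18.9 CPM (16.9 to 21.2) in knockout 2, against 49.4 CPM (46.1 to 52.9) in Hez and 55.2 CPM (51.6 to 58.9) in wild type. Both knockout libraries lay below both others, and the intervals of the knockout libraries did not meet. Knockout 1 held 51.7% and knockout 2 held 34.3% of the wild-type level, while Hez held 89.6%. Knockout 2 lay 0.59 log2 units below knockout 1, a gap larger than 0.585, the 1.5-fold limit used here.

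Zbtb16 encodes PLZF, a zinc finger repressor of transcription that glucocorticoids induce in several cell types and that also acts in innate-like lymphocytes. The gene (ENSMUSG00000066687) lies at chr9:48565597-48747522 on the minus strand, and no other gene of the table overlaps it. It had 185 reads in knockout 1 and 150 reads in knockout 2, against 2133 reads in Hez and 3078 reads in wild type. In CPM these were 11.4 (9.79 to 13.1) in knockout 1 and 9.44 (7.99 to 11.1) in knockout 2, against 129 (124 to 135) in Hez and 190.0 (183 to 197) in wild type. Both knockout libraries were far below both others, and their intervals overlapped each other. The knockout mean was 10.4 ± 1.37 CPM (SD, n = 2). Relative to wild type, 5.99% of the level was left in knockout 1 and 4.97% in knockout 2, against 67.9% in Hez. By FPKM, a level per length, Zbtb16 ranked 11036th in knockout 1 and 11477th in knockout 2 among the genes of the table, against 1920th in Hez and 1160th in wild type. In whole lung, fewer cells of a type and less RNA per cell cannot be told apart. Summed lymphocyte markers came to 152 CPM in knockout 1 and 101.8 CPM in knockout 2, against 105 CPM in Hez and 101.9 CPM in wild type, and their part in the level of Zbtb16 was not tested.

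The neighbours of Zbtb16 were looked at as well. Within 1 Mb on either side the table holds 16 other genes, of which 11 were tested and 0 were called for knockout against wild type. Over all 15055 genes tested only 8, or 0.0531%, were called, so 0 of 11 says little about the locus. Their log2 folds ran from -0.97 for Gm5617, a predicted gene, to 0.46 for Tmprss5, a membrane serine protease with 13 to 24 reads. Gm5617 had 47 reads in knockout 1 and 41 in knockout 2, against 37 in Hez and 87 in wild type. Ncam1, a neural cell adhesion molecule gene nearby, had 2.64 CPM in knockout 1 and 3.02 CPM in knockout 2, against 2.78 CPM in Hez and 3.02 CPM in wild type.

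Klf9 and Tsc22d3 are the other transcription regulators of the set. Klf9, a zinc finger factor that feeds hormone signals into the circadian and growth programmes, lies at chr19:23118590-23145498 on the plus strand. It had 253 CPM in knockout 1 and 162 CPM in knockout 2, against 344 CPM in Hez and 252 CPM in wild type. Knockout 2 was the lowest library and Hez the highest, while knockout 1 and wild type were level, so the groups overlapped. The differences from wild type were 0.00 in knockout 1, -0.64 in knockout 2 and 0.45 in Hez, in log2 CPM.

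Tsc22d3 encodes GILZ, a leucine zipper protein that carries much of the hormone's restraint of inflammatory signalling, and lies at chrX:139440277-139501408 on the minus strand. Reads numbered 4144 in knockout 1 and 1915 in knockout 2, against 4565 in Hez and 3605 in wild type. That gave 255 CPM (247 to 263) in knockout 1 and 121 CPM (115 to 126) in knockout 2, against 276 CPM (268 to 284) in Hez and 223 CPM (215 to 230) in wild type. Knockout 1 lay between Hez and wild type, and knockout 2 alone was low. Knockout 2 stood 0.88 log2 units below wild type (difference -0.88) and knockout 1 stood 0.20 above it.

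Sgk1 and Errfi1 act in signalling. Sgk1, a kinase that keeps epithelial sodium channels at the cell surface, lies at chr10:21758083-21875802 on the plus strand. It had 218 CPM in knockout 1 and 244 CPM in knockout 2, against 257 CPM in Hez and 212 CPM in wild type. Both knockout libraries lay between wild type and Hez, and the log2 differences from wild type were 0.04 in knockout 1, 0.20 in knockout 2 and 0.28 in Hez. Errfi1, an inhibitor of the epidermal growth factor receptor, lies at chr4:150938376-150953349 on the plus strand. It had 286 CPM in knockout 1 and 167 CPM in knockout 2, against 262 CPM in Hez and 185 CPM in wild type. The knockout libraries were thus the highest and the lowest of all, and the gap between them, knockout 2 minus knockout 1, was -0.77 in log2 CPM.

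Pdk4 had the largest gap between the knockout libraries among the members. It encodes a mitochondrial kinase that shuts down pyruvate dehydrogenase and so spares glucose in favour of fatty acids, and lies at chr6:5483351-5496309 on the minus strand. Its reads numbered 634 in knockout 1 and 197 in knockout 2, against 519 in Hez and 558 in wild type. In CPM these were 39.0 (36.0 to 42.1) in knockout 1 and 12.4 (10.7 to 14.3) in knockout 2, against 31.4 (28.8 to 34.2) in Hez and 34.4 (31.6 to 37.4) in wild type. Knockout 1 was the highest library and knockout 2 by far the lowest. Knockout 2 minus knockout 1 was -1.64 in log2 CPM, and of all genes tested 90, or 0.598%, had a lower value.

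The metallothioneins, small proteins that bind zinc and copper and respond to both metals and glucocorticoids, lie side by side at chr8:94905710-94906955 (Mt1) and chr8:94899292-94900196 (Mt2), both on the plus strand. Mt1 had 19.6 CPM (17.5 to 21.9) in knockout 1 and 14.9 CPM (13.0 to 16.9) in knockout 2, against 16.7 CPM (14.8 to 18.8) in Hez and 19.1 CPM (17.0 to 21.3) in wild type. Knockout 2 was lowest, and its interval met that of Hez but not those of knockout 1 and wild type. Mt2 had 0 reads in all 4 libraries, although Mt1 begins 5513 bases away and was counted throughout. At a limit of 3 reads over the unscaled library total, a count of 0 allows up to 0.1831 CPM in knockout 1, 0.1891 CPM in knockout 2, 0.1812 CPM in Hez and 0.1863 CPM in wild type. Nothing at hand says how the authors' counting treated Mt2, so the 0 is not read as a lack of expression.

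**Figure D2:**
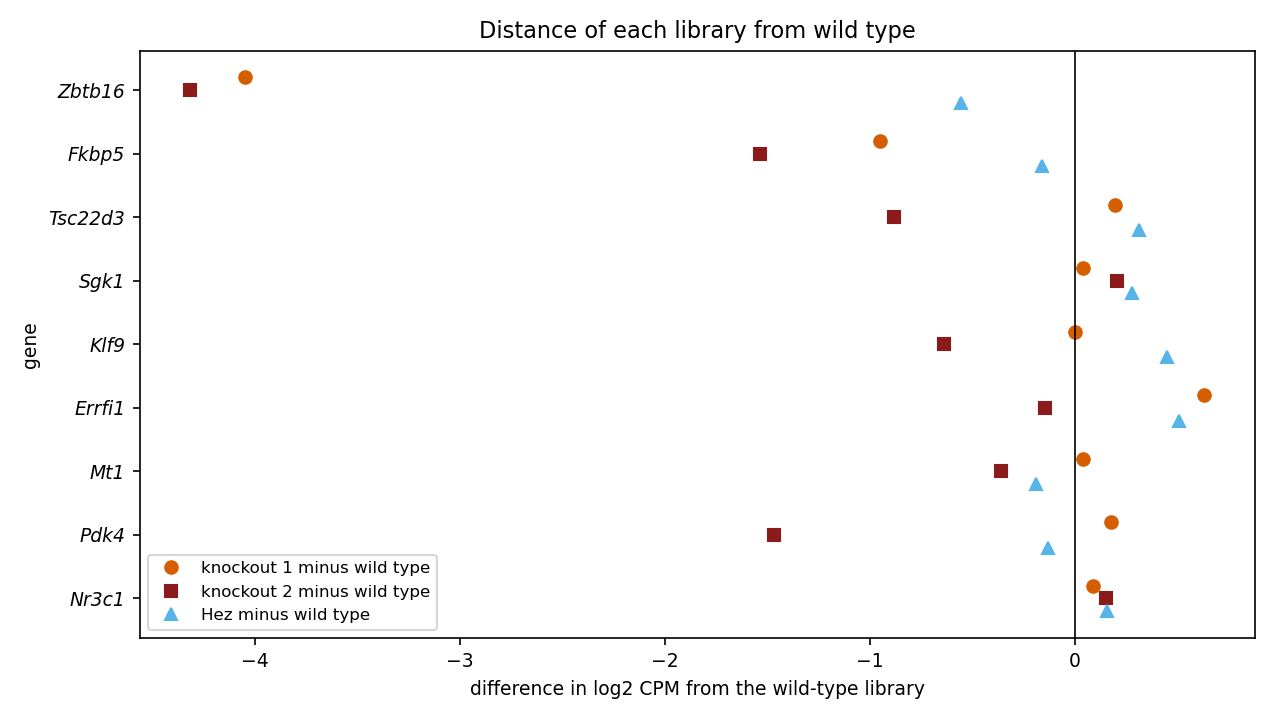
Difference in log2 CPM of knockout 1, knockout 2 and Hez from the wild-type library for the 9 members with reads, 1 point per library. Zbtb16 lies at -4.05 in knockout 1 and -4.31 in knockout 2, whereas Pdk4 lies at 0.18 in knockout 1 and -1.47 in knockout 2.

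The gap between the knockout libraries can be set against all genes. Knockout 2 was at least 1.5-fold below knockout 1 for 779 of 15055 genes tested, or 5.17%, with 1 library on each side and no test. Among the 9 members tested it was so for 5, namely Fkbp5, Tsc22d3, Klf9, Errfi1 and Pdk4. The members' median for knockout 2 minus knockout 1 was -0.59 in log2 CPM, and that of all genes tested was 0.00. These values were known when the members were chosen, so the count is a description.

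Beyond the members, 87 genes of the glucocorticoid pathway were followed in 8 lists, of which 84 were tested. These lists were chosen with earlier results of these data known. For knockout against wild type edgeR called 1 of the 84, Zfp36, a protein that speeds decay of inflammatory messages, which rose. It had 278 CPM in knockout 1 and 278 CPM in knockout 2, against 232 CPM in Hez and 148 CPM in wild type, a log2 fold of 0.91 ± 0.098 (SE) with an edgeR adjusted p of 0.0365. Both knockout libraries stood above both others, with Hez in between. The call was lost without the filter on low counts and with limma on log2 FPKM. Zfp36 is also an immediate early gene, and the summed list of 10 such genes was at 136% of wild type in knockout 1, 201% in knockout 2 and 152% in Hez. The part of that list in the result was not tested. For knockout against Hez, and against Hez and wild type together, edgeR called 0 of the 84. The median log2 fold of the 84 genes for knockout against wild type was 0.04, against 0.00 for all genes tested.

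No tested gene around the receptor passed the threshold. Of 13 chaperones, coregulators and the mineralocorticoid receptor, 0 passed the threshold. Hspa8, a constitutive heat shock protein that loads the receptor, had 924 CPM in knockout 1 and 933 CPM in knockout 2, against 835 CPM in Hez and 745 CPM in wild type (log2 fold against wild type 0.32 ± 0.075 SE, edgeR adjusted p = 0.445). Hsp90ab1, the chaperone that holds the receptor, had 1260.0 CPM in knockout 1 and 1191 CPM in knockout 2, against 1063 CPM in Hez and 1065 CPM in wild type. Of 5 tested genes of hormone metabolism 0 passed. Hsd11b1, which regenerates active hormone inside cells, had 234 CPM in knockout 1 and 233 CPM in knockout 2, against 263 CPM in Hez and 223 CPM in wild type. Srd5a1, a steroid reductase, had 2.15 CPM in knockout 1 and 3.46 CPM in knockout 2, against 2.36 CPM in Hez and 1.60 CPM in wild type, at the lower end of what was counted. H6pd, which supplies the cofactor of Hsd11b1, had 325 CPM in knockout 1 and 292 CPM in knockout 2, against 344 CPM in Hez and 293 CPM in wild type.

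The steroid-responsive genes of lung epithelium, with 0 of 9 called in any of the 3 comparisons, showed small differences. Sftpa1, a surfactant protein, had 4756 CPM in knockout 1 and 4430 CPM in knockout 2, against 3819 CPM in Hez and 3953 CPM in wild type (log2 fold against wild type 0.22 ± 0.063 SE, edgeR adjusted p = 0.632). Scnn1a, the sodium channel subunit that Sgk1 protects, had 293 CPM in knockout 1 and 309 CPM in knockout 2, against 342 CPM in Hez and 343 CPM in wild type. Of the metal-responsive genes 0 of 5 tested were called. Mtf1, the metal sensor that drives metallothionein genes, had 33.0 CPM in knockout 1 and 34.7 CPM in knockout 2, against 29.3 CPM in Hez and 27.8 CPM in wild type. Slc39a14, a zinc importer, had 45.3 CPM in knockout 1 and 31.8 CPM in knockout 2, against 37.3 CPM in Hez and 35.4 CPM in wild type. Among 16 tested paralogs of the members 0 were called in any of the 3 comparisons. Tsc22d2, which had the smallest p of them against wild type, had 52.8 CPM in knockout 1 and 61.4 CPM in knockout 2, against 48.3 CPM in Hez and 46.5 CPM in wild type. Tsc22d1, which had the smallest p of them against Hez, had 327 CPM in knockout 1 and 266 CPM in knockout 2, against 378 CPM in Hez and 352 CPM in wild type, with both knockout libraries below both others. Klf16, a relative of Klf9, had 17.3 CPM in knockout 1 and 17.2 CPM in knockout 2, against 17.3 CPM in Hez and 13.0 CPM in wild type.

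The 36 genes in the 3 lists of hormone-induced transcription regulators, signalling inhibitors and metabolic genes were then fitted with 1 knockout library left out. These fits take their spread from 1 Hez and 1 wild-type library, which carry different genotype labels and are treated as replicates, with 1 residual degree of freedom. They assume that a lone knockout library varies like those, and they share both control libraries. The split was looked at because the members differed between the knockout libraries, so it was chosen after seeing the data. The lists too were chosen with earlier results of these data known, so their counts beside all genes are a description. With knockout 2 as the lone knockout library, edgeR called 9 of the 36 lower, and 59 of all 15055 genes, or 0.392%, were called lower. The 9 calls became 8 with DESeq2, 1 (Angptl4) without the filter on low counts and 0 with limma on log2 FPKM. With knockout 1 as the lone library it called 0 of the 36, and 10 of all genes, or 0.0664%, were called lower. The median log2 fold of the 36 genes was -0.39 for knockout 2 and 0.14 for knockout 1, while that of all genes was -0.01 for knockout 2 and 0.00 for knockout 1. Tat, at 0 reads in knockout 2, left the median of -0.39 as it was when set at the level that 3 reads allow. Knockout 2 lay at least 1.5-fold below knockout 1 for 12 of the 36 and at least 1.5-fold above it for 1. Of all 15055 genes tested, 779, or 5.17%, lay that far below and 709 that far above. The difference between the knockout libraries has 1 library on each side and no test. The other 5 pathway lists had 0 calls in either fit.

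Of the 9, 4 are transcription regulators. Hif3a, a hypoxia-inducible factor subunit, had 8.92 CPM in knockout 1 and 3.34 CPM in knockout 2, against 16.0 CPM in Hez and 14.5 CPM in wild type. Knockout 1 lay between knockout 2 and the controls. The log2 fold of knockout 2 against Hez and wild type was -2.20. Klf15, a regulator of amino acid and lipid use, had 47.0 CPM in knockout 1 and 23.7 CPM in knockout 2, against 58.3 CPM in Hez and 43.1 CPM in wild type. Per1, a clock gene that the receptor also drives, had 114 CPM in knockout 1 and 51.8 CPM in knockout 2, against 118 CPM in Hez and 80.6 CPM in wild type. Foxo3, a forkhead factor of fasting and stress, had 154 CPM in knockout 1 and 107 CPM in knockout 2, against 200 CPM in Hez and 166 CPM in wild type. In each of these genes knockout 2 was the lowest library. The log2 folds of knockout 2 were -1.10 for Klf15, -0.94 for Per1 and -0.78 for Foxo3.

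Another 4 belong to the metabolic list. Angptl4, a secreted inhibitor of lipoprotein lipase, had 104 CPM in knockout 1 and 31.4 CPM in knockout 2, against 88.5 CPM in Hez and 80.9 CPM in wild type. Its knockout 2 log2 fold was -1.43. Knockout 1 was the highest library of Angptl4 and knockout 2 the lowest, as in Pdk4. Glul, the glutamine synthetase, had 343 CPM in knockout 1 and 227 CPM in knockout 2, against 415 CPM in Hez and 389 CPM in wild type. Txnip, a thioredoxin-binding arrestin that limits glucose uptake, had 769 CPM in knockout 1 and 386 CPM in knockout 2, against 582 CPM in Hez and 616 CPM in wild type. Fam107a, an actin-associated stress protein rather than an enzyme, had 24.7 CPM in knockout 1 and 10.3 CPM in knockout 2, against 29.5 CPM in Hez and 25.9 CPM in wild type. The log2 folds of knockout 2 were -0.83 for Glul, -0.64 for Txnip and -1.44 for Fam107a. Fbxo32 and Trim63, ubiquitin ligases of muscle wasting, did not pass. Fbxo32 had 25.9 CPM in knockout 1 and 24.8 CPM in knockout 2, against 34.0 CPM in Hez and 30.7 CPM in wild type. Trim63 had 1.84 CPM in knockout 1 and 2.39 CPM in knockout 2, against 2.48 CPM in Hez and 3.27 CPM in wild type.

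The remaining gene, Cdkn1a, encodes the cell cycle inhibitor p21 and was the only one of the 16 signalling inhibitors called with knockout 2 as the lone knockout library. It had 136 CPM in knockout 1 and 70.9 CPM in knockout 2, against 136 CPM in Hez and 118 CPM in wild type. Its knockout 2 log2 fold was -0.85. Other members of that list stood the other way or did not pass. Dusp1, a phosphatase that switches off stress kinases, had 243 CPM in knockout 1 and 372 CPM in knockout 2, against 262 CPM in Hez and 161 CPM in wild type, so that knockout 2 was the highest library. Mertk, a receptor for clearing dead cells, had 75.6 CPM in knockout 1 and 78.4 CPM in knockout 2, against 107 CPM in Hez and 109.7 CPM in wild type. Both knockout libraries of Mertk lay below both others, and its log2 fold against wild type of -0.51 ± 0.098 (SE) had an edgeR adjusted p of 0.323. Cd163, a scavenger receptor of macrophages, had 15.4 CPM in knockout 1 and 11.8 CPM in knockout 2, against 17.5 CPM in Hez and 21.7 CPM in wild type. Cebpb, a factor of the transcription list, had 56.8 CPM in knockout 1 and 55.3 CPM in knockout 2, against 43.9 CPM in Hez and 41.5 CPM in wild type.

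**Figure D3:**
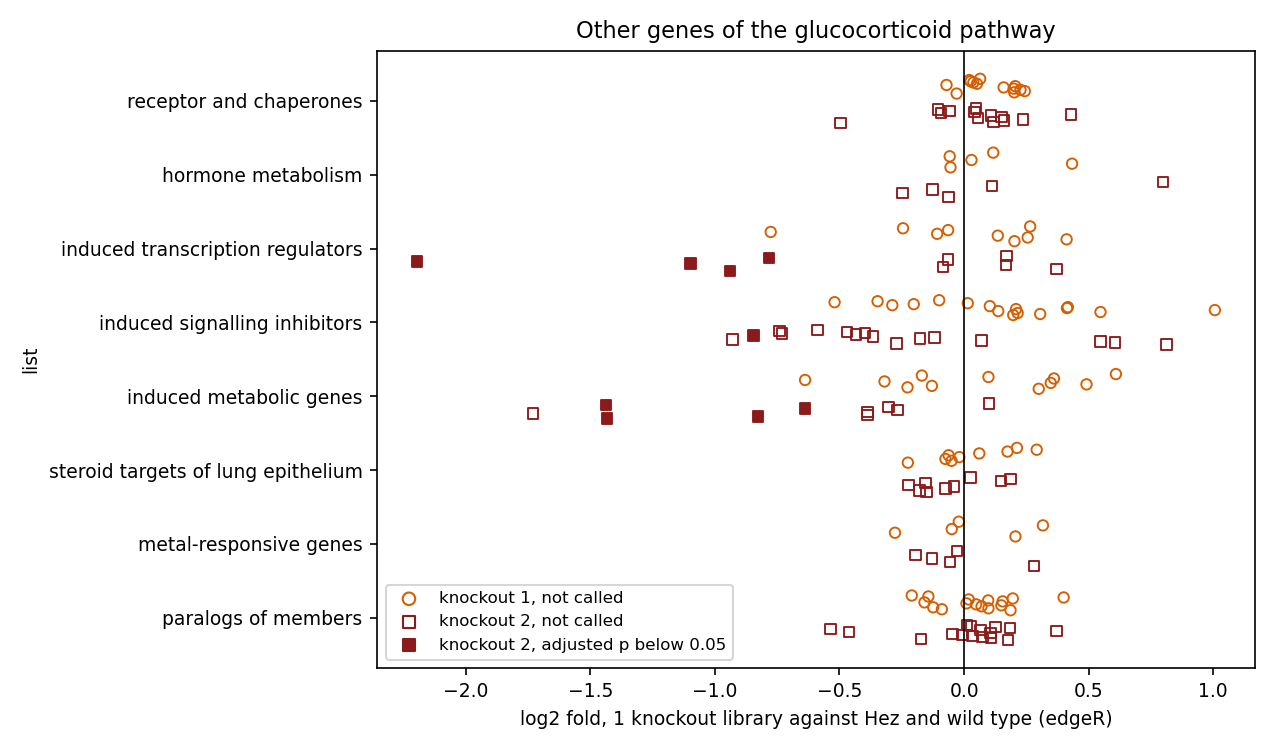
Log2 fold of 1 knockout library against Hez and wild type (edgeR) for the 84 tested pathway genes in 8 lists, circles for knockout 1 and squares for knockout 2, filled where the adjusted p was below 0.05. Tat, at 0 reads in knockout 2, is left out for that library. The 9 filled squares are the genes called lower in knockout 2, all in the 3 lists of induced genes.

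The DNA in front of these genes was read for receptor sites, because induced genes differed from each other. RefSeq promoter windows of GRCm38.p6, each 300 bases long from 250 bases before to 50 bases after a transcript start, were searched on both strands. The table holds 32851 windows, and 16 of them belong to 8 members, with no window for Zbtb16 and Nr3c1. A degenerate receptor palindrome, GNACANNNTGTNC, occurred in 156 windows, or 0.475%. Among the members it occurred in 1 window of Sgk1 and in the window of Mt1, and among the other pathway genes in windows of Txnip, Trim63 and Fam107a. The full palindrome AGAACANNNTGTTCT, which contains the degenerate one, occurred in 3 windows of the table, or 0.00913%, and 1 of these is the Sgk1 window. The 4 windows printed are those of the 2 members and of the 2 holders of the palindrome that edgeR called lower in knockout 2. Capitals mark the match.
Sgk1, chr10:21993640-21993939, plus strand: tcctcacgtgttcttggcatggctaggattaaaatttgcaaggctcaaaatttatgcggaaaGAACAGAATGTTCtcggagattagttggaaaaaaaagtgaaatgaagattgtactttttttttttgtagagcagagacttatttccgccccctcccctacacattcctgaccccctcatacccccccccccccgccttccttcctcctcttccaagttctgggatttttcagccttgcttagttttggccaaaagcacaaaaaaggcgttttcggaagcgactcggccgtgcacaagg
Mt1, chr8:94178839-94179138, plus strand: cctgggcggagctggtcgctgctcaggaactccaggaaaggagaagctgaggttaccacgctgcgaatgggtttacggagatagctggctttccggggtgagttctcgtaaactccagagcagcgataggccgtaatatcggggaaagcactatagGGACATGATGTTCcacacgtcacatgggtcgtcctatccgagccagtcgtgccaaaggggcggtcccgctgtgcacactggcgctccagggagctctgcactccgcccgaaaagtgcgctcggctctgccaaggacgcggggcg
Txnip, chr3:96557707-96558006, plus strand: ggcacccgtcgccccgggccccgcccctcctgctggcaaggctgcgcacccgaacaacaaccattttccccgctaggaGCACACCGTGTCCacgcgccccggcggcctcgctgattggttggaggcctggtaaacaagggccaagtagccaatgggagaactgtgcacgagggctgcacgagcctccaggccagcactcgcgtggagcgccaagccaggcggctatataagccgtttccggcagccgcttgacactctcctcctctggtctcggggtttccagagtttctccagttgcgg
Fam107a, chr14:8309730-8310029, minus strand: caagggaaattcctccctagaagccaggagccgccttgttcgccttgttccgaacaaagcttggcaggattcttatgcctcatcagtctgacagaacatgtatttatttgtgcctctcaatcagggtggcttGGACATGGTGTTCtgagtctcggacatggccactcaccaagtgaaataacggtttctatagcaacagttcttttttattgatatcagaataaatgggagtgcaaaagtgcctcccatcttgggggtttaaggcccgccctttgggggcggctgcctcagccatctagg
Each is read 5′ to 3′ on the strand of its gene, and these coordinates are of GRCm38.p6, not of the table's build. The match began 188 bases before the start in Sgk1, 94 in Mt1, 172 in Txnip and 118 in Fam107a. A match is a string of letters in this window and not a measured site.

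The palindrome was found in genes of both kinds. Sgk1, with a palindrome, differed little among the libraries, whereas Txnip and Fam107a, also with one, were lower in knockout 2. Mt1, also a holder, was lowest in knockout 2 by a smaller margin. It had 14.9 CPM there, against 19.6 CPM in knockout 1, 16.7 CPM in Hez and 19.1 CPM in wild type. Trim63, the other holder, was low throughout and higher in knockout 2 (2.39 CPM) than in knockout 1 (1.84 CPM). The windows of Fkbp5, Klf9, Pdk4 and Errfi1 held neither the palindrome nor its single arm AGAACA, which occurred in 19.0% of all windows. Of the windows of Tsc22d3, that at chrX:140600473-140600772 held 1 arm and no palindrome, and the others held neither. DNA outside the windows was not searched, so a window without a match does not show that a gene lacks receptor sites. The core of the metal response element, searched as TGCACNC and TGCGCNC, occurred 4 times in the window of Mt2 and 3 times in that of Mt1, and at least once in 25.7% of all windows.

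Other gene groups differed between the libraries alongside the members. Marker lists too were chosen with earlier results of these data known, so their counts beside all genes are a description. Summed fat cell markers were at 73.5% of wild type in knockout 1, 62.3% in knockout 2 and 104.5% in Hez, and 8 of 9 had both knockout libraries below both others. Over all genes tested that share was 16.3%. Pdk4 and Angptl4 are also active in fat. Both were highest in knockout 1, at 39.0 CPM for Pdk4 and 104 CPM for Angptl4, and lowest in knockout 2. Summed clock output genes, whose level follows the time of day, were at 70.9% of wild type in knockout 1, 67.7% in knockout 2 and 118% in Hez, with 8 of 9 below in both knockout libraries. Clock genes of the opposite phase stood at 107% in knockout 1, 100.4% in knockout 2 and 94.0% in Hez. Immediate early genes, which respond within minutes to stress and handling, were higher in knockout 2 than in knockout 1 for 10 of 10. Of all 15055 genes tested, 7578 were higher in knockout 2 than in knockout 1. Striated muscle markers summed to 62.5% of wild type in knockout 1, 74.4% in knockout 2 and 94.4% in Hez. Of these, 9 of 10 were below in both knockout libraries, and 10 of 10 were higher in knockout 2 than in knockout 1. Smooth muscle markers stood at 78.3% in knockout 1, 69.2% in knockout 2 and 59.4% in Hez, and multiciliated cell markers at 78.7% in knockout 1, 77.2% in knockout 2 and 69.3% in Hez. In each of these lists 0 of 7 were below in both knockout libraries. No measured marker was at 0 in all libraries. The part of these groups in the levels of Zbtb16, Fkbp5 and the genes low in knockout 2 was not tested.

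**Figure D4:**
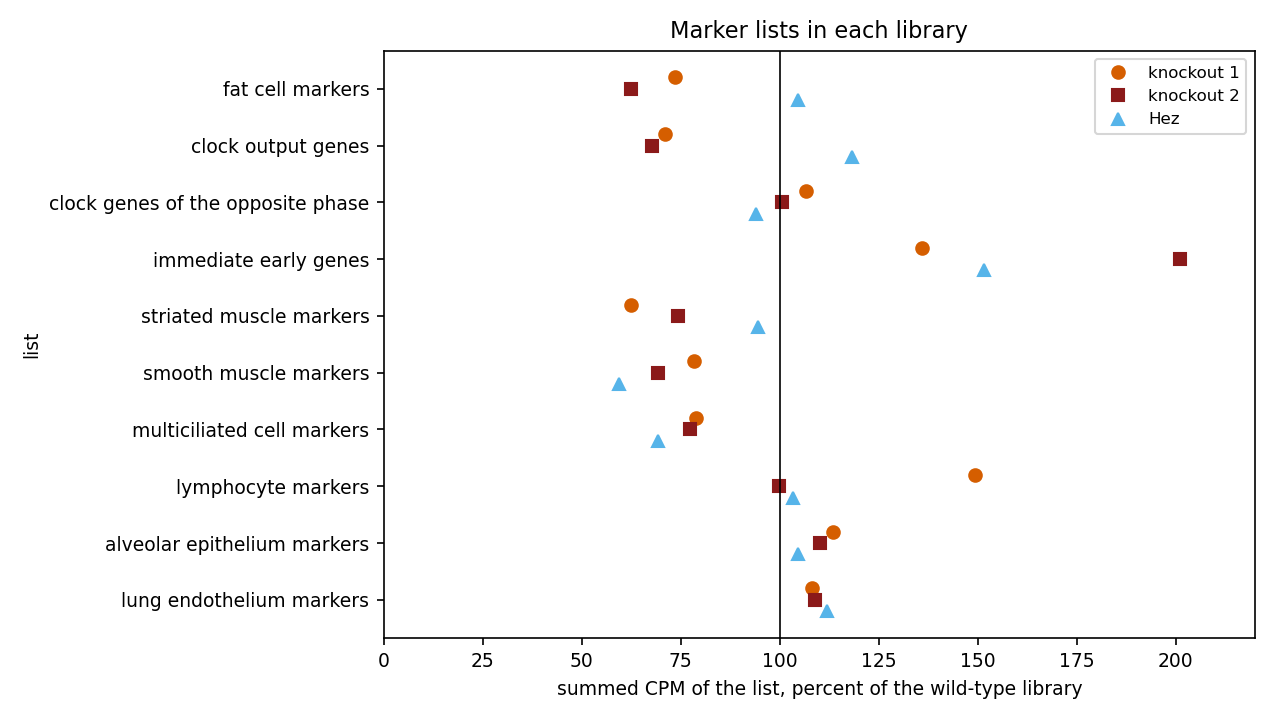
Summed CPM of 10 marker lists as a percent of the wild-type library, 1 point per library. Fat cell and clock output lists lie below 75% in both knockout libraries and above 100% in Hez, and the immediate early list reaches 201% in knockout 2.

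No gene lay close to Zbtb16 in pattern, and those named here are only the nearest. Likeness was measured as the distance between differences from wild type in log2 CPM over the 3 other libraries, among 14125 genes with a mean of at least 1 CPM. The nearest gene to Zbtb16 was Cyp2g1 at a distance of 2.88, with 8 reads in knockout 1 and 6 in knockout 2, against 21 in Hez and 38 in wild type. It was followed by Xlr3b at 3.05, Xlr3a at 3.17, the targeted gene Dnah9 at 3.33 and Slc35d3 at 3.52. Xlr3b had 40 reads in knockout 1 and 0 in knockout 2, against 78 in Hez and 105 in wild type, and Slc35d3 had 41 reads or fewer in each library. Fkbp5 had closer neighbours, namely Tmem203 at 0.193, Osbp2 at 0.242, Slc25a34 at 0.279, Slc24a2 at 0.288 and Tpd52l1 at 0.335. Slc25a34 had the most reads of these 5, with 28 in knockout 1 and 22 in knockout 2, against 48 in Hez and 59 in wild type, so counting error is wide in all of them.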

How the data were processed

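RNA from lung was sequenced on an Illumina platform after a TruSeq preparation, per the labels' protocols. In the deposited table the authors give raw read counts, FPKM values and gene lengths, per the file headers. Deposited FPKM equalled count over length and library total for all 66024 values above 0 (relative tolerance 1e-06). Per the submitters' processing notes, coordinates are of GRCm39. The sources used here name no aligner, counter, annotation or strand setting. Overlapping or near-identical genes may therefore share reads.

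Members and lists were chosen with earlier results of these data known. Counts were filtered (filterByExpr, minimum count 10), TMM-scaled and fitted by edgeR 4.0.16's quasi-likelihood test (R 4.3.3, two-sided, Benjamini-Hochberg over 15055 genes, threshold 0.05), in 3 groups with 1 residual degree of freedom and, for both controls together, in 2 groups with 2. The standard error is the fold over the square root of F. The biological coefficient of variation was 0.114, so p-values lean on other genes and on an assumed equal spread of all groups. The p-values weigh a difference against a spread that may be technical. For a single gene, the 3-group fit takes that spread only from the 2 knockout libraries. Replicate numbers follow accession order and pair nothing. Log2 CPM used a prior count of 2. The tests were tested on simulated data. Named besides the members were the 2 to 4 genes per pathway list with the smallest p for knockout against wild type, every pathway gene past the threshold in any comparison, and the 5 nearest in pattern to Zbtb16 and to Fkbp5. Gm5617, Tmprss5, Ncam1 and Tat were named after their values were seen. Alternatives were DESeq2 1.42.0 (size factors, Wald test), no filter, limma 3.58.1 on log2 FPKM (mean of at least 1, pseudocount 0.5 or 0.1), and leaving out each library.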

Additional observations from a re-analysis of the deposited data

How the results depend on the processing

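In 72 differences of the members recomputed under 4 scalings or units 0 changed sign. The scalings differ little here, so a change of sign was hardly possible. Of the 72, 2 (both of Zbtb16, on log2(FPKM + 0.5)) moved by more than 1 SD of the knockout pair, and the median of all genes moved by at most 0.0179. The sign did depend on the knockout library for some members. Against wild type, knockout 1 and knockout 2 stood at 0.20 and -0.88 log2 CPM for Tsc22d3 and at 0.18 and -1.47 for Pdk4. Errfi1 stood at 0.63 and -0.14, Mt1 at 0.04 and -0.36, and Klf9 at 0.00 and -0.64. Zbtb16 and Fkbp5 were negative in both, and Sgk1 and Nr3c1 positive in both. Counts of calls did depend on the method. For knockout against wild type, 8 genes became 4 without the filter, 16 with DESeq2 and 1 with limma at either pseudocount, and the 1 pathway gene became 0 without the filter and 0 with limma. For knockout against Hez, 1 gene became 7 with DESeq2 and 0 with limma. Against Hez and wild type together, 2 genes became 34 with DESeq2 and 1 with limma, and 0 pathway genes became 1 with DESeq2 (Mertk). Leaving out 1 library moved these from 1 (without wild type) to 101 genes (without knockout 1) and from 0 to 9 pathway genes, with 7 genes and 1 pathway gene without Hez and 20 genes and 0 pathway genes without knockout 2. For knockout 2 alone, 101 genes became 10 without the filter, 58 with DESeq2 and 0 with limma. Its 9 pathway genes became 8 with DESeq2, all shared and without Per1, 1 without the filter (Angptl4) and 0 with limma. For knockout 1 alone, 20 genes became 12 with DESeq2 size factors, 0 without the filter and 0 with limma. The cause of these changes was not tested. The lone-knockout fits and their alternatives were chosen after seeing the data. Knockout against wild type or Hez alone without 1 knockout library leaves 0 residual degrees of freedom and was not run as a test. No paired analysis was possible because the labels give no pairing between the libraries. Depth limits the low genes: Mt1, Pdk4 and Zbtb16 in the knockout libraries rest on 150 to 634 reads, and one library per control group leaves the spread of Hez and of wild type unmeasured.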
